A study of Mus musculus with 50 samples.

Results

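Voltage-gated sodium channels were followed through 7 subunit genes, the pore-forming alpha subunits Scn1a, Scn3a, Scn8a and Scn9a and the auxiliary beta subunits Scn2b, Scn3b and Scn4b. They were taken by gene symbol from the 24552 genes listed in both count tables, and all 7 passed the filter on low counts in every model. The tables hold gene counts from mouse nucleus accumbens (NAc), in which Cre-dependent HA-tagged ribosomes (RiboTag, RT) let the ribosome-bound mRNA of dopamine D1 receptor neurons (RT; D1-Cre mice) or D2 receptor neurons (RT; D2-Cre mice) be pulled down with an HA antibody (IP), with RNA of the remaining homogenate kept as input. Mice were C57BL/6 by the labels (C57BL/6J in the methods), 8 to 12 weeks old in the main table, and were housed without defeat (Con) or met an aggressive CD1 male in short daily bouts, whose length the labels and the methods give differently, over at most 10 days, after which a social interaction test sorted them as susceptible (Sus) or unsusceptible, called resilient here (Res). D1-IPs numbered 4 Con, 4 Res and 5 Sus libraries, D2-IPs 5 of each, and inputs 3 per line and stress group, 46 libraries in all, each from 2 pooled mice. A second table holds 4 D1-IPs from undefeated RT; Sirt1-floxed; D1-Cre mice (labelled Sirt1-KO, age not given) beside the 4 D1 Con IPs of the main table. All groups carry RT and one of 2 bacterial artificial chromosome Cre transgenes, so an IP holds whatever cells drive that transgene, and the D1 and D2 groups differ in the whole transgenic line.

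The alpha subunit forms the pore and the voltage sensors of the channel and carries the sodium current that starts and propagates the action potential. Beta subunits are single-pass membrane proteins with an extracellular immunoglobulin fold that set the gating and surface level of the pore and bind other adhesion molecules. Scn1a encodes Nav1.1, which is prominent in fast-spiking interneurons and whose loss causes Dravet syndrome, Scn8a encodes Nav1.6, the main channel of the mature axon initial segment and node of Ranvier, Scn3a encodes Nav1.3, which is highest in the developing brain, and Scn9a encodes Nav1.7, best known from pain-sensing neurons. Scn2b and Scn4b encode beta subunits that are joined to the pore by a disulphide bond, while the product of Scn3b binds it without one. The beta subunit encoded by Scn4b is abundant in striatal medium spiny neurons (MSNs), where its cytoplasmic tail can act as a blocker that yields resurgent sodium current.

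On the GRCm38 genome 3 of the alpha subunit genes lie together on the minus strand of chromosome 2, Scn3a at chr2:65457118-65567627, Scn1a at chr2:66270778-66440840 and Scn9a at chr2:66480080-66634962, while Scn8a is at chr15:100869858-101045938 on the plus strand. The beta subunit genes are all on the plus strand of chromosome 9, Scn3b at chr9:40269217-40291618, Scn2b at chr9:45117782-45130070 and Scn4b at chr9:45138395-45154152, so that Scn2b ends 8324 bp before Scn4b starts. All are protein-coding, and counts cover their exons, UTRs included. Scn9a shares 180 bp of exon with the antisense gene Gm13629, and since the strand setting of the counting is not given in the sources used here, reads of that stretch cannot be told apart. The RefSeq promoter table (GRCm38.p6, 250 bases before to 50 bases after the start site) held 5 of the 7 genes. Promoters of the neighbours Scn4b and Scn2b are printed because these genes lie side by side and differ in their D1 to D2 contrast, and that of Scn1a because its contrast ran the other way. Capitals mark the only match to the motifs searched on both strands, a CCAAT box (letters CCAAT), which lies at -67 to -63 on the minus strand in Scn4b (read as ATTGG below) and at -63 to -59 on the plus strand in Scn1a.
Scn4b: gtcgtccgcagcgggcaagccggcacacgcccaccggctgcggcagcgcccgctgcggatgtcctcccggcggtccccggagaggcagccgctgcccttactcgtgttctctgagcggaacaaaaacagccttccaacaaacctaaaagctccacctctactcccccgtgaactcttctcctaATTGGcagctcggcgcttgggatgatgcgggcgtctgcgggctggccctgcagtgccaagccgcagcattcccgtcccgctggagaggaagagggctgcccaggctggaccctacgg
Scn2b: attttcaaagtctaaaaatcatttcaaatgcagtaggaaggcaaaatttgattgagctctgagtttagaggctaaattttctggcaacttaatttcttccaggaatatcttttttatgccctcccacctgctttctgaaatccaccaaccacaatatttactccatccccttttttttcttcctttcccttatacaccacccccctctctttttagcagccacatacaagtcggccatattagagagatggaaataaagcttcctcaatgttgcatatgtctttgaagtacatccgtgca
Scn1a: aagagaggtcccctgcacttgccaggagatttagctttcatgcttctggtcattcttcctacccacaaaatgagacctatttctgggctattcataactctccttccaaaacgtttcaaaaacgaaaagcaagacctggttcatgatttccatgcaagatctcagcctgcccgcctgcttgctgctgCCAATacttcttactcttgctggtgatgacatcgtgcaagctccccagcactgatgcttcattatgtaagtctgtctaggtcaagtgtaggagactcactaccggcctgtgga
These are chr9:45138374-45138673 (plus strand), chr9:45117626-45117925 (plus strand) and chr2:66440788-66441087 (minus strand), each read 5′ to 3′ along its gene. Positions count from the RefSeq start site, which lies downstream of the annotated gene start given above for Scn4b (45138395) and Scn2b (45117782). Most of the Scn4b window, its CCAAT match included, thus lies within the annotated gene. The Scn4b promoter had 66.3% GC and 26 CpG dinucleotides, that of Scn2b 38.3% and 2, and that of Scn1a 47.3% and 5, against a median of 52.7% GC over all 32851 promoters. The window of Scn2b held none of the motifs searched, which were the GC box (GGGCGG, in 35.7% of all promoters), the TATA box (TATAAA, 13.6%), the CCAAT box (37.4%), the E-box (CACGTG, 7.15%) and the cAMP response element (TGACGTCA, 1.79%). Motif matches are descriptions of these letters and do not show binding.

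Gene counts summed to 21591075 to 31009626 in the 28 IPs, 18384265 to 28179940 in the 18 inputs and 22174187 to 31785984 in the Sirt1-KO libraries. All 4 D1-MSN markers (Drd1, Pdyn, Tac1, Chrm4) were higher in D1-IPs and all 4 D2-MSN markers (Drd2, Adora2a, Gpr6, Penk) higher in D2-IPs. IPs were not free of other cells. The summed level of 5 cortical excitatory neuron genes spanned 400.5 to 1423 CPM (counts per 1000000 counts of the TMM-scaled library) in D1-IPs but 21.8 to 317 CPM in D2-IPs, and 5 of 5 were called higher in D1-IPs. The sum of 5 cholinergic interneuron genes spanned 7.73 to 30.6 CPM in D1-IPs but 62.7 to 135 CPM in D2-IPs, with 4 of 5 called lower in D1-IPs, including Chat. All 4 genes of the pan-MSN list, among them Ppp1r1b, Bcl11b and Rgs9, were called lower in D1-IPs, with a sum of 3051 to 4712 CPM against 4285 to 5648 CPM. Cortical genes were lowest, among IPs and among inputs, in the D2 Sus libraries numbered 1. In bulk RNA of this kind, fewer cells of a type and less RNA per cell cannot be told apart.

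Per length of exon, the beta subunits Scn4b and Scn2b were the most abundant of the members and Scn9a the least, in both lines and in IPs as in inputs. The Scn4b level was 222 ± 26.9 CPM per kilobase in D1-IPs (SD, n = 13) and 284 ± 27.5 in D2-IPs (n = 15), and the Scn2b level 132 ± 7.11 and 138 ± 9.02, with no overlap between the 2 genes in either line. Scn3b and Scn8a followed, at 38.1 ± 1.71 and 36.7 ± 2.22 CPM per kilobase in D1-IPs and 40.3 ± 1.89 and 33.5 ± 2.89 in D2-IPs. Their ranges overlapped in each line, so the order of this pair is not beyond the spread between libraries. Scn1a stood at 14.2 ± 1.30 and 11.5 ± 1.10 CPM per kilobase, Scn3a at 7.71 ± 0.640 and 8.95 ± 0.568, and Scn9a at 0.592 ± 0.10 and 0.811 ± 0.203. Neighbours among these 3 did not overlap in range in either line, nor did Scn1a with Scn8a. In inputs the distance at the top was smaller, with Scn4b at 105 ± 17.4 and 95.3 ± 12.7 CPM per kilobase in D1- and D2-inputs (n = 9 each) and Scn2b at 83.0 ± 5.18 and 82.1 ± 3.22, and the ranges of these 2 genes overlapped. The most abundant alpha subunit among the members was thus Scn8a, and Scn9a rested on only 138 to 389 counts per IP.

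**Figure D1:**
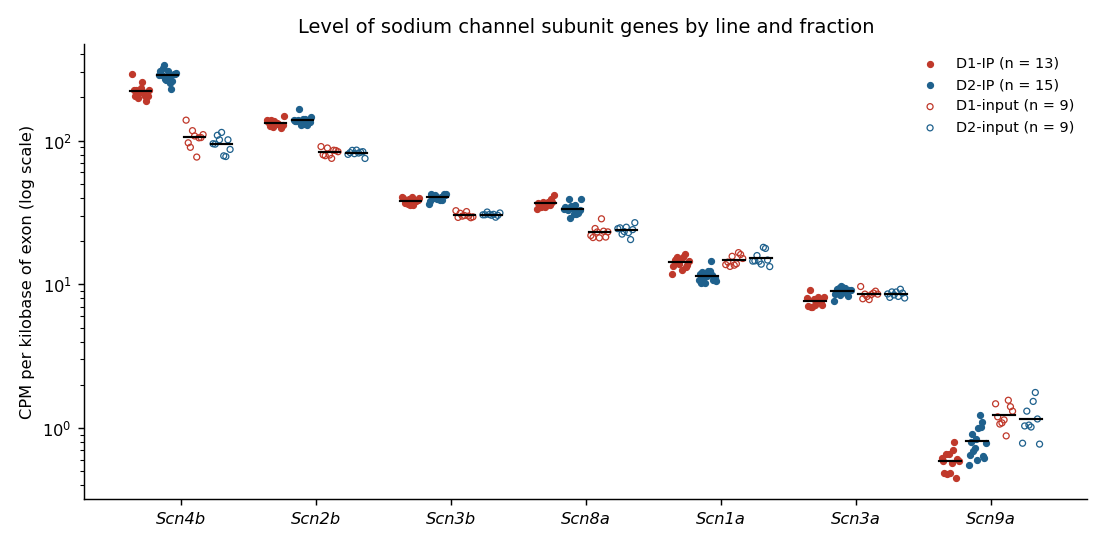
Level of each sodium channel subunit gene in CPM per kilobase of exon (log scale), with D1-IPs and D2-IPs as filled red and blue points, inputs as open points, and black bars for the means. Scn4b is at the top, above Scn2b, in each of the IP sets, and Scn9a at the bottom, near 1 CPM per kilobase in inputs and lower in IPs.

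How far each gene is enriched in tagged cells was asked by comparing IPs with inputs of the same line. Scn4b, Scn2b, Scn8a and Scn3b were higher in the IPs of both lines, Scn9a was lower in both, and Scn1a and Scn3a were each called in 1 direction in a single line. Scn4b was the most enriched member. In D1-IPs its level was 943 to 1452 CPM (median 1079.9) and in D1-inputs 383 to 691 CPM (median 523), a log2 fold change of 1.08 (SE 0.077, adjusted p = 2.28e-16, edgeR quasi-likelihood test, n = 13 and 9). D2-IPs held 1133 to 1682 CPM (median 1433) against 386 to 568 CPM (median 474) in D2-inputs, a log2 fold change of 1.58 (adjusted p = 1.01e-21, n = 15 and 9). The lowest IP lay above the highest input in both lines. Scn2b followed with log2 fold changes of 0.67 in D1 and 0.75 in D2, Scn8a with 0.66 and 0.50, and Scn3b with 0.33 and 0.40 (adjusted p at most 4.43e-12), again without overlap. Scn9a averaged 15.8 ± 2.80 CPM in D1-inputs, and D1-IPs held 7.56 ± 1.28 CPM, with a log2 fold change of -1.06 (SE 0.132, adjusted p = 1.53e-09), with every D1-IP below every D1-input. In D2 it fell from 14.8 ± 4.21 to 10.4 ± 2.60 CPM (log2 fold change -0.51, adjusted p = 0.000325) and the groups overlapped. Scn1a was lower in D2-IPs (-0.40, adjusted p = 1.86e-08) and did not pass in D1 (-0.05, adjusted p = 0.441). Scn3a was lower in D1-IPs (-0.15, adjusted p = 0.00191) and did not pass in D2 (0.06, adjusted p = 0.160). Both outcomes for Scn3a depended on the setting. It passed in D2 without the filter on low counts (0.10, adjusted p = 0.0316) and in 9 of 24 omissions of 1 library. In D1 it did not pass with only control libraries (-0.16, adjusted p = 0.136).

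In all, 6 of 7 members were called in D1-IPs against D1-inputs, where 81.9% of all genes tested were, and 6 of 7 in D2, where 82.7% were, so the count itself is near the background. Groups did not overlap for 5 of 7 members in D1 (48.3% of all genes) and 4 of 7 in D2 (44.3%). The median log2 fold change of the members was 0.33 in D1 and 0.40 in D2, beside -0.04 and -0.08 over all genes. Glial RNA makes up part of the inputs: 6 astrocyte genes summed to 791 to 1010 CPM in inputs and to 37.9 to 95.8 CPM in IPs, and their part in these enrichments was not tested.

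Enrichment itself differed between the lines for 4 of 7 members, where 25.5% of all genes did. Scn4b was enriched less in D1 than in D2, with a difference of log2 fold changes (D1 minus D2) of -0.49 (SE 0.104, adjusted p = 0.000408, edgeR quasi-likelihood test of the difference). The difference was also negative for Scn9a, at -0.55 (adjusted p = 0.0246), and for Scn3a, at -0.21 (adjusted p = 0.00751). It was positive for Scn1a, at 0.36 (SE 0.081, adjusted p = 0.000921). The 5 cortical genes differed in the same sense as Scn1a, with 5 of 5 called higher in D1. Within lines, Scn1a and the cortical sum correlated at -0.864 in D2-IPs and at 0.167 in D1-IPs. The part of the cortical genes in the Scn1a difference was not tested. A fit with the cortical sum as a further term was made for D1-IPs against D2-IPs and not for this difference. Only Scn1a passed when control libraries alone were used, with Scn4b then at -0.52 (adjusted p = 0.102). Between D1-inputs and D2-inputs, 0 of 7 members were called by edgeR or DESeq2 and 0 had an unadjusted p under 0.05 (0.0266% of all genes were called by edgeR and 4.82% had such a p), with Scn4b at a log2 fold change of 0.14 (SE 0.097, adjusted p = 0.988).

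**Figure D2:**
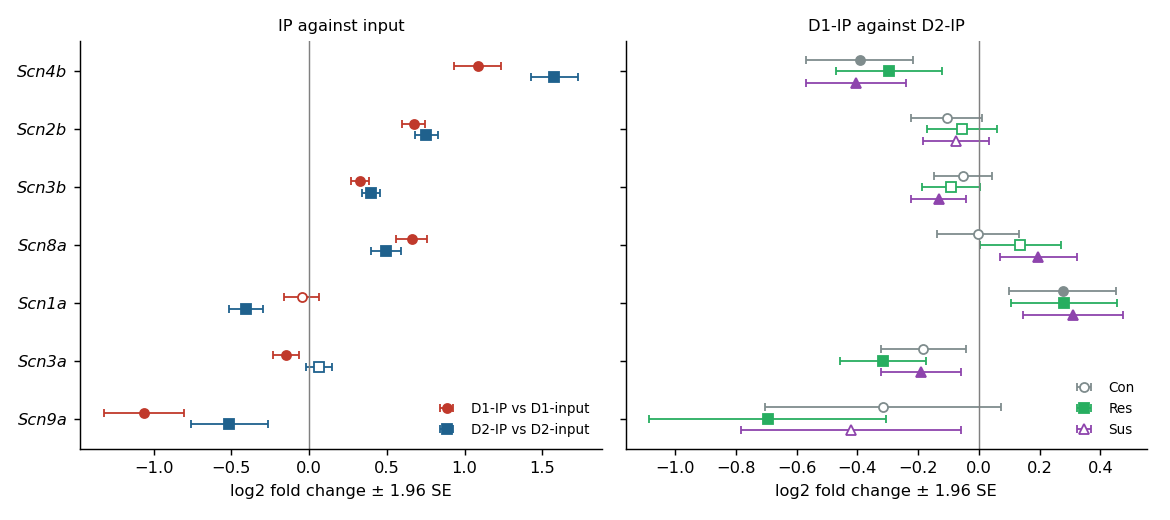
Log2 fold changes of the members with their 95% intervals, IP against input for D1 (red circles) and D2 (blue squares) on the left and D1-IP against D2-IP within Con, Res and Sus on the right, with filled symbols for an adjusted p under 0.05. Scn4b lies farthest to the right of 0 against input in both lines and left of 0 in the D1 to D2 contrast in all 3 stress groups, while Scn1a lies right of 0 there in all 3.

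D1-IPs and D2-IPs were then compared directly, over the mean of the 3 stress groups. Scn1a and Scn8a were higher in D1-IPs, and Scn3a, Scn9a, Scn3b and Scn4b were higher in D2-IPs, with Scn4b the clearest. Its levels in D1-IPs were 1452, 1115, 1018 and 1116 CPM in Con, 983, 1063, 1163 and 1266 CPM in Res, and 1079.9, 1019.6, 943, 1021 and 1128 CPM in Sus. Its levels in D2-IPs were 1433, 1509, 1425, 1596 and 1682 CPM in Con, 1346, 1313, 1528, 1372 and 1258 CPM in Res, and 1133, 1303, 1452, 1440.1 and 1462 CPM in Sus. Of the D1-IPs, 10 of 13 lay below every D2-IP, the exceptions being the D1 Con library numbered 1 and 2 of the Res libraries, and the lowest D2 value was that of the D2 Sus library numbered 1. The log2 fold change was -0.36 (SE 0.051, adjusted p = 1.14e-06, edgeR quasi-likelihood test), a change of -22.3%. All 4 pan-MSN genes were also lower in D1-IPs, with a log2 fold change of -0.33 for Ppp1r1b (the dopamine-regulated phosphatase inhibitor DARPP-32), and their part in the Scn4b difference was not tested.

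Scn1a ran the other way. Its levels in D1-IPs were 131, 149, 165 and 167 CPM in Con, 174, 156, 165 and 140.5 CPM in Res, and 173, 181, 146, 153 and 161 CPM in Sus. In D2-IPs they were 120.4, 131, 114, 137 and 124 CPM in Con, 113, 131, 127, 139 and 138 CPM in Res, and 161, 129, 119.9, 123 and 117 CPM in Sus. The highest D2 value belongs to the D2 Sus library numbered 1, and 7 of 13 D1-IPs lay above it. The log2 fold change was 0.29 (SE 0.051, adjusted p = 3.63e-05). Among 8 GABAergic interneuron genes 4 were higher in D1-IPs, Pthlh, Vip, Pvalb and Calb2, while Npy was lower, and their summed level spanned 134 to 198 CPM in D1-IPs, against 143 to 198 CPM in D2-IPs. The part of these genes in the Scn1a difference was not tested.

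The other members differed by less or were less abundant. D1-IPs held 86.1 to 114 CPM of Scn3a (median 97.6) and D2-IPs 96.0 to 122 CPM (median 111), with a log2 fold change of -0.23 (adjusted p = 3.91e-05). Scn9a, at 5.72 to 10.2 CPM (median 7.59) against 7.07 to 15.7 CPM (median 9.99), had the largest log2 fold change, -0.48 (SE 0.112, adjusted p = 0.00105). Both genes overlapped between the lines. Scn8a was higher in D1-IPs by 0.11 (531 to 662 CPM against 455 to 619 CPM, adjusted p = 0.0252) and Scn3b lower, at -0.09 (194 to 221 CPM against 198 to 233 CPM, adjusted p = 0.00864). Scn2b, at 616 ± 33.1 and 645 ± 42.0 CPM, missed the threshold (-0.08, 95% interval -0.14 to -0.01, adjusted p = 0.0589).

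Of the 7 members, 6 were called, where 40.8% of all genes were, 2 of them higher in D1-IPs (19.6% of all genes) and 4 lower (21.3%). None passed a fold of 1.5 as well (7.66% of all genes), and over all 28 IPs the lines overlapped for each of the 7 (2.82% of all genes did not overlap). The median log2 fold change of the members was -0.09, beside -0.02 over all genes. A fit with the cortical sum as a further term, added after the data were seen, called 3 of 7 members, where it called 19.4% of all genes. In it Scn1a stood at 0.52 (adjusted p = 8.77e-06), Scn4b at -0.41 (adjusted p = 0.00109) and Scn3a at -0.22 (adjusted p = 0.0254), while Scn8a (0.03, adjusted p = 0.784), Scn9a (-0.04, adjusted p = 0.895) and Scn3b (-0.12, adjusted p = 0.0804) did not pass. The cortical sum did not overlap between the lines, at 400.5 to 1423 CPM in D1-IPs and 21.8 to 317 CPM in D2-IPs. The fit gave both lines the same slope, though Scn1a correlated with the sum at -0.864 in D2-IPs and 0.167 in D1-IPs. The line differences in this fit thus rest on carrying that slope beyond the range of either line.

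Within each stress group Scn1a and Scn4b were called. Scn1a was higher in D1-IPs by 0.28 in Con, 0.28 in Res and 0.31 in Sus on the log2 scale (adjusted p = 0.0366, 0.0279 and 0.00999), and Scn4b changed by -0.39, -0.30 and -0.40 (adjusted p = 0.00293, 0.0201 and 0.000865). In Con these were the 2 members called, where 14% of all genes were. In Res 4 members were called (17.5% of all genes), with Scn3a at -0.32 and Scn9a at -0.70 as well (adjusted p = 0.00251 and 0.0143), and Scn9a was the single member past a 1.5-fold change in any stress group (5.52% of all genes in Res, 4.98% in Con and 5.55% in Sus). In Sus 5 members were called (17.6% of all genes), the others being Scn3a (-0.19, adjusted p = 0.0487), Scn8a (0.19, adjusted p = 0.0352) and Scn3b (-0.13, adjusted p = 0.0452), and these last 3 were close to the threshold. Lines did not overlap for Scn1a and Scn3a in Res (16.8% of all genes), for Scn3a and Scn4b in Sus (11.4%) and for no member in Con (12.9%). Leaving out 1 library moved these counts, and the share of all genes was not computed for the omissions. In Con 1 member was called without D1 Con 2 or 4 or D2 Con 3 or 5. In Res 1 was called without D1 Res 1 and 2 without D1 Res 3 or D2 Res 3. In Sus 2 were called without D1 Sus 3 or D2 Sus 1 or 4, and 3 without D1 Sus 2 or 4 or D2 Sus 2, 3 or 5. Scn1a lost its call in 6 of 9 omissions in Con, in 4 of 9 in Res and in none of 10 in Sus, and Scn4b in 3 of 9 in Res and in none in Con or Sus. With the cortical sum as a further term, 2 members were called in each stress group, where 9.28% of all genes were in Con, 11% in Res and 10.1% in Sus. The limit of that fit given above holds here too.

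Stress was the question of the study, and susceptible and resilient mice were compared with controls within each line. No member was called by edgeR at an adjusted p under 0.05 in any of the 3 stress contrasts of either line, nor in the difference between lines, and DESeq2 called none either. Over all genes 0 were called in 5 of these 6 contrasts and 1 (0.00703%) in D1 Res against Con. An unadjusted p under 0.05 was the threshold the study used for stress. By it 1 member was called in D1 Sus against Con (0 with RLE size factors in place of TMM). This was Scn4b, where 5.34% of all genes were called. Its Con and Sus values, given above, averaged 1175 and 1038 CPM and overlapped, with a log2 fold change of -0.18 (SE 0.089, adjusted p = 0.846). The 4 Con libraries include the one at 1452 CPM, and its omission gave a log2 fold change of -0.06. That library also had the lowest cortical sum of the D1-IPs, 400.5 CPM, and the highest pan-MSN sum, 4712 CPM against 3629 to 3659 CPM in the other Con libraries. Between Sus and Con the median log2 fold change was -0.13 for the 4 pan-MSN genes and 0.32 for the 5 cortical genes, none of them called, and their part in the Scn4b change was not tested. In D2-IPs the Scn4b changes were -0.17 in Sus against Con (adjusted p = 0.999) and -0.17 in Res against Con (adjusted p = 1.000), with 0 of 7 members at an unadjusted p under 0.05 (3.68% and 3.02% of all genes). That count for D2 Sus was 1 with DESeq2 (3.69% of all genes), without the filter, with only the groups compared and with the replicate block, so whether this count differs between the lines depends on the setting. The unadjusted p of Scn4b in Sus against Con was 0.0492 in D1-IPs and 0.0507 in D2-IPs (edgeR quasi-likelihood test). Tested directly, its change differed between the lines by -0.01 (SE 0.122, unadjusted p = 0.927). D1-IPs of Res against Con also gave 0 of 7 (2.11% of all genes), with Scn4b at -0.07 (95% interval -0.25 to 0.11). No member was free of overlap between the groups compared in any of these contrasts, where 2.31%, 1.67% and 1.99% of all genes were in D1-IPs and 0.478%, 0.457% and 0.197% in D2-IPs for Sus against Con, Res against Con and Sus against Res.

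Scn8a was the member whose Sus contrast differed most between the lines. In D1-IPs it was at 531, 576, 549.6 and 544 CPM in Con and 591, 561, 621, 588 and 662 CPM in Sus (log2 fold change 0.13). In D2-IPs it was at 526, 548, 523, 516 and 619 CPM in Con and 483, 501, 492, 521 and 614 CPM in Sus (-0.07). The groups overlapped in both lines, and the difference of 0.20 (SE 0.095) had an adjusted p of 1.000, as 1 of 7 members at an unadjusted p under 0.05, where 1.82% of all genes were. For the difference in Res against Con no member reached that level (2.36% of all genes), nor did any in Sus against Res in D1-IPs (4.23%) or D2-IPs (1.66%). The largest change of any member against Con was that of Scn9a in D2 Res, 0.28 on the log2 scale (SE 0.183), at 9.33, 10.7, 7.63, 12.9 and 15.7 CPM against 7.07, 8.27, 10.2, 11.7 and 8.84 CPM in Con, and these values overlapped. In D1-IPs the changes from Con were at most 0.18 in Sus and 0.10 in Res in size. Inputs of both lines together, fitted with the line as a term, gave 0 of 7 members at an adjusted or an unadjusted p under 0.05 in each stress contrast, by edgeR and at an adjusted p by DESeq2, where 4.47%, 3.23% and 5.54% of all genes had an unadjusted p under 0.05 in Sus against Con, Res against Con and Sus against Res.

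**Figure D3:**
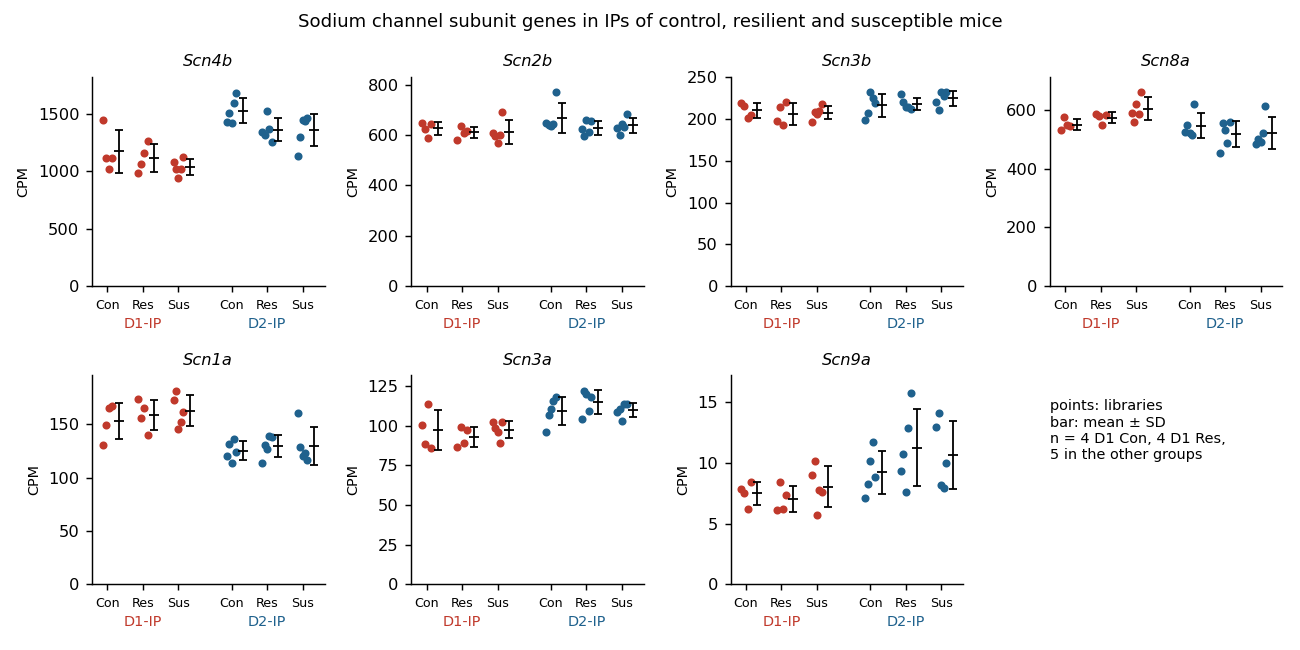
CPM of each member in every IP library (points), with the mean and SD of each group as bars, for D1-IPs (red) and D2-IPs (blue) of Con, Res and Sus mice; each axis starts at 0. The groups of a line overlap for every member, the D2 values of Scn4b lie mostly above the D1 values, and the D1 values of Scn1a lie mostly above the D2 values.

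In the libraries labelled Sirt1-KO, Sirt1 mRNA was not called lower. Sirt1, the NAD-dependent deacetylase that the label names, was at 13.1, 16.6, 14.8 and 14.4 CPM in D1 Con and 15.2, 16.2, 13.2 and 10.2 CPM in the libraries labelled Sirt1-KO, a log2 fold change of -0.10 (SE 0.133, adjusted p = 0.768, edgeR quasi-likelihood test). A count over the whole gene includes exons outside a floxed part, so it does not test the deletion. Scn9a was lower in the labelled libraries. It was at 7.42, 7.14, 5.87 and 7.99 CPM in D1 Con and 4.00, 4.40, 4.16 and 4.51 CPM in the libraries labelled Sirt1-KO, on 182 to 220 and 97 to 136 counts, and the groups did not overlap. The log2 fold change was -0.74 (SE 0.127, adjusted p = 0.0198), and Scn9a was the 1 of 7 members called (1.66% of all genes), also at a fold over 1.5 (0.749%).

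CPM in this table were scaled within it, so the same D1 Con libraries have other values here than above. Scn4b was at 1373, 1056, 965 and 1061 CPM in D1 Con and 782, 714, 674 and 953 CPM in the libraries labelled Sirt1-KO, without overlap but with less than the SD of either group between the nearest values. Its log2 fold change was -0.51 (SE 0.122, adjusted p = 0.0585), just short of the threshold. Scn8a was at 502, 545, 521 and 518 CPM in D1 Con and 594, 588, 636 and 604 CPM in the labelled libraries (0.22, SE 0.050, adjusted p = 0.0567), also without overlap. Non-overlap was thus seen for 3 of 7 members, where 9.55% of all genes showed it. Scn1a changed by -0.22 (adjusted p = 0.204), and Scn3a, Scn2b and Scn3b by -0.11, -0.07 and -0.04, none of which passed, while the median over the members was -0.11 and that over all genes was 9.16e-05. Leaving out 1 library moved the count of members called to 0 without D1 Con 4 or without the labelled library 1, 3 or 4, and to 3 without the labelled library 5. The share of all genes was not computed for these omissions. DESeq2 called 3 members, Scn9a, Scn4b and Scn8a, and 5.44% of all genes.

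Cell-type genes moved with this label too. The cortical sum was 379 to 1039 CPM in D1 Con and 853 to 1605 CPM in the labelled libraries (log2 fold changes of 0.81 to 0.99 for the 5 genes, none called), the D1-MSN sum 1192 to 1469 and 896 to 1122 CPM, the pan-MSN sum 3437 to 4457 and 2619 to 3721 CPM, and the cholinergic sum 10.1 to 11.5 and 4.13 to 8.51 CPM. The GABAergic interneuron sum was 126 to 164 CPM in D1 Con and 162 to 197 CPM in the labelled libraries, with 2 of 8 genes called higher, Npy among them, and 1 lower. Of the D1-MSN genes 1 was called lower, Pdyn, as was 1 of the 4 cholinergic genes tested, and none of the pan-MSN list. With the cortical sum as a further term, 0 of 7 members were called (0.242% of all genes), though 3 had an unadjusted p under 0.05 (12.8% of all genes). Scn9a was then at -0.67 (adjusted p = 0.173) and Scn4b at -0.18 (adjusted p = 0.463). The labelled libraries are in the second table only, beside D1 Con libraries of the main table, and their age is not given. A difference in preparation and the genotype thus cannot be told apart.

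**Figure D4:**
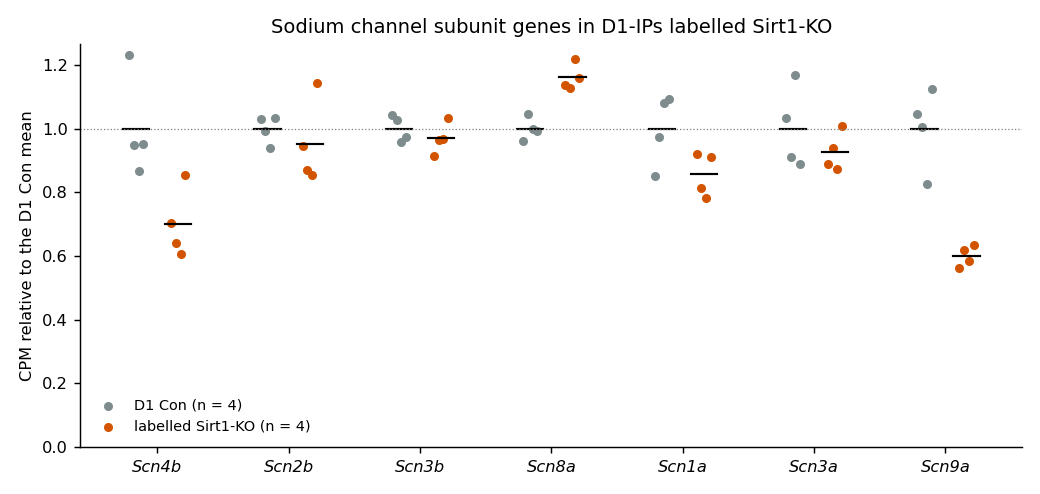
CPM of each member divided by the mean of the 4 D1 Con IPs, for D1 Con (grey) and the D1-IPs labelled Sirt1-KO (orange), with points for libraries and black bars for means. Scn9a and Scn4b lie below 1 in all 4 labelled libraries and Scn8a lies above 1 in all 4.

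The neighbourhood of these channels was followed in 7 lists with 37 symbols, covering the other sodium channel subunits, intracellular fibroblast growth factors that bind the channel tail, the scaffold of the axon initial segment and node, its potassium channels, the sodium leak channel complex, the proteases that cut beta subunits, and the sodium pump. Between D1- and D2-IPs, 34 were tested, 14 were higher in D1-IPs, 6 lower and 14 not called, beside 40.8% called over all genes. Among the other subunits Scn2a, which encodes the Nav1.2 pore, was higher in D1-IPs, at 688 ± 36.4 CPM against 634 ± 26.1 CPM (SD, n = 13 and 15). Its log2 fold change was 0.10 (adjusted p = 0.00493). Scn7a, a sodium-sensing relative, was also called higher (0.99 on the log2 scale, adjusted p = 0.00174), but it was barely detected. Its IP means were 0.618 ± 0.243 against 0.306 ± 0.155 CPM, and no library held more than 50 counts. The input means of Scn7a were higher, at 1.32 CPM for the D1 line and 1.01 CPM for the D2 line.

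Fgf12 and Fgf13 were higher in D1-IPs (0.34 and 0.24) and Fgf11 lower (-0.14). Of the scaffold, the adhesion molecules Nrcam, Cntn1 and Nfasc were higher (0.29, 0.16 and 0.10), and the cytoskeletal genes Sptbn4, Sptbn1 and Ank3, for beta spectrins and ankyrin-G, lower (-0.21, -0.30 and -0.18), as was Trim46 (-0.08), which bundles axonal microtubules. In the leak channel complex Fam155a was higher (0.40) and Unc79 lower (-0.23), and Bace1, the beta-secretase, was higher by 0.16. Of the 6 sodium pump genes 4 were higher, among them the beta subunit genes Atp1b1 by 0.27 and Atp1b2 by 0.24.

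Against inputs, 35 of the 37 were tested, with 18 higher and 12 lower in D1-IPs and 15 higher and 13 lower in D2-IPs, beside 81.9% and 82.7% called over all genes. Scn2a was higher in D1-IPs by 0.61 on the log2 scale. Its mean was also higher in D2-IPs, at 634 ± 26.1 CPM against 462 ± 20.3 CPM in D2-inputs. No gene of the 7 lists was called by edgeR in the Sus or Res contrasts with Con of either line, between the inputs of the lines, or in the libraries labelled Sirt1-KO. At an unadjusted p under 0.05 there were 4 in D1 Sus, 0 in D1 Res, 0 in D2 Sus, 1 in D2 Res, 0 between inputs and 13 of the 35 tested in the labelled libraries, where the shares of all genes were 5.34%, 2.11%, 3.68%, 3.02%, 4.82% and 17.3%.

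Across the 28 IPs, Scn4b and Scn1a moved against each other, with a Pearson correlation of their log2 CPM of -0.80, and of -0.50 once the mean of each group was removed. The D1 Con IP numbered 1 had the lowest Scn1a and highest Scn4b of its group, and the D2 Sus IP numbered 1 the reverse. A correlation without these libraries was not computed. Scn4b and Scn2b moved together at 0.68, and at 0.55 within groups. Scn8a and Scn2b correlated at 0.18 over all IPs and at 0.56 within groups. These are descriptions over libraries that share line, stress group and scaling, and the first pair also carries the D1 to D2 contrast given above. The count of Scn4b divided by that of Scn2b, which needs no scaling between libraries, was 1.79 ± 0.177 in D1-IPs and 2.20 ± 0.163 in D2-IPs (SD, n = 13 and 15), beside 1.35 ± 0.153 and 1.24 ± 0.144 in inputs (n = 9 each). In the libraries labelled Sirt1-KO it was 1.38 ± 0.0327, all 4 values lying between 1.33 and 1.40, and in D1 Con 1.73 to 2.24.

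**Figure D5:**
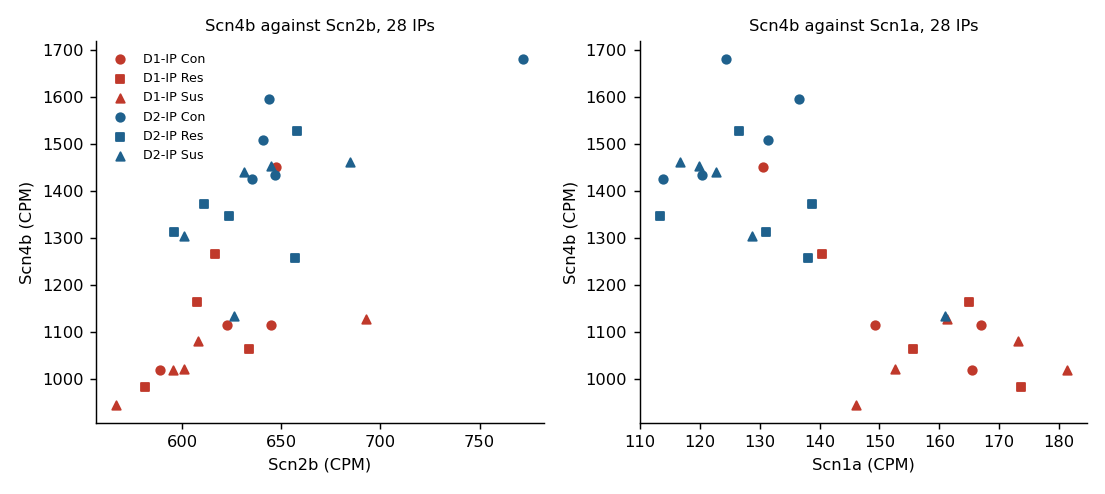
Scn4b CPM against Scn2b CPM (left) and Scn1a CPM (right) in the 28 IPs, with D1 in red, D2 in blue, circles for Con, squares for Res and triangles for Sus; the axes do not start at 0. D1-IPs sit to the lower right and D2-IPs to the upper left in the plot against Scn1a, and the D2 Sus library with 161 CPM of Scn1a sits among the D1-IPs.

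The genes most like each member over the 28 IPs were ranked by the same correlation among all genes tested, and the 3 nearest are named. For Scn4b these were Ppp1r1b (0.95), Rasd2 (0.95) and Smpd3 (0.94). Those of Scn1a were Slc38a1 (0.91), Frmpd1 (0.90) and Plcxd2 (0.89). The remaining members had looser neighbours, Nbea, Myt1l and Smc5 for Scn3a (0.87, 0.86 and 0.86), Rasal2, Nos1ap and Slc1a2 for Scn8a (0.86, 0.83 and 0.82), Senp7, Slc38a6 and Amy1 for Scn9a (0.88, 0.86 and 0.84), 1700003D09Rik, Caln1 and Camk2b for Scn2b (0.85, 0.84 and 0.82), and Garem1, Fam206a and Tbl1x for Scn3b (0.82, 0.80 and 0.78). With Spearman's rho the list of Scn4b, like those of Scn3a, Scn9a and Scn2b, kept 1 of its 3 genes. Group means were not removed for these rankings, so they also carry the D1 to D2 contrast, and no value within groups was computed.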

How the data were processed

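RNA of RiboTag IPs and inputs was poly-A selected and sequenced from stranded libraries. The deposited values are raw gene counts made by the authors. The submitters' processing notes name cutadapt, STAR, HTSeq and mm10, while versions, annotation and strand setting are not given in the sources used here. Of the entries, 5 name no gene (21.5% ± 2.83 of counts in IPs, 37.8% ± 1.16 in inputs) and were left out, as were 2 columns that match no sample and all fold changes and p-values of the authors. Counts were tested in R 4.3.3 with edgeR 4.0.16 (TMM scaling, filterByExpr with a minimum count of 10 and total of 15, quasi-likelihood F test), with Benjamini-Hochberg adjustment over 13626 to 15404 genes. The models covered 28 IPs, 46 IPs and inputs, 18 inputs by line, 18 inputs by stress with line as a term, and 8 libraries of the second table. A gene was called at an adjusted p under 0.05, and counts with a fold over 1.5 or an unadjusted p under 0.05 follow the thresholds of the study. CPM were TMM-scaled within each table, and levels per kilobase used the union of GENCODE exons. Scripts were tested on simulated data. DESeq2 1.42.0, other scalings, filters, designs, a replicate block and omission of each library were tried as alternatives. Libraries are pools of 2 mice, and p-values measure the spread between pools. The members, gene lists and tests were chosen with earlier results of these data known. Named in each comparison are the 7 members, Sirt1, up to 3 called genes per list and direction with the lowest adjusted p, and all genes of counts of 5 or fewer. Promoters are from RefSeq. Some genes of the lists are not reported here by name.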

Additional observations from a re-analysis of the deposited data

Results flagged for a closer look

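A pair of single libraries stood apart within their groups by Dixon's test, which was applied to 49 groups of 4 or 5 libraries, where chance flags about 1 in 20. Scn1a was at 161 CPM in the D2 Sus IP numbered 1, while the other 4 D2 Sus IPs were at 117 to 129 CPM. The same library had the lowest cortical sum of all IPs, 21.8 CPM, and the lowest Scn4b level of the D2-IPs, 1133 CPM, and over the 15 D2-IPs, this library included, Scn1a and the cortical sum correlated at -0.864. Scn2b was at 772 CPM in the D2 Con IP numbered 5, while the other 4 were at 635 to 647 CPM.

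The difference between IP and input was not the same in the 2 lines for 4 members, by edgeR's quasi-likelihood test of the difference over all 46 libraries. The differences of log2 fold changes, D1 minus D2, were 0.36 for Scn1a, -0.21 for Scn3a, -0.55 for Scn9a and -0.49 for Scn4b (adjusted p = 0.000921, 0.00751, 0.0246 and 0.000408).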

How the results depend on the processing

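Counts of members called kept within 1.5 times of the value reported under every setting tried except the following. For D1-IP against D2-IP in Sus the count of 5 became 3 with RLE size factors, without the filter on low counts, or with only the groups compared, where Scn3a and Scn3b lost the call, or Scn3b and Scn8a in the last. For IP against input the difference between the lines was called for 1 member with only control libraries, which leaves fewer libraries. For Sirt1-KO the count of 1 became 3 with DESeq2 or the replicate block and 2 without the filter, as Scn4b (and Scn8a with DESeq2 or the block) passed. With the cortical marker sum as a covariate, added after the data were seen, the counts were 3 over the mean of the stress groups, 2 in Res, 2 in Sus and 0 for Sirt1-KO. The cause of these moves was not tested. Shares of all genes called were computed for DESeq2 and the cortical covariate only. Counts under the other settings, and with 1 library left out, thus have no background beside them.

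With 1 library left out, the counts ranged from 1 to 2 in Con, 1 to 4 in Res, 2 to 4 in Sus and 0 to 3 for Sirt1-KO, from 6 to 7 over the mean of the stress groups and for D2-IP against D2-input, from 3 to 5 for the difference in enrichment, and stayed at 6 for D1-IP against D1-input and at 0 in each stress contrast and between inputs.

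Replicate numbers were not taken to pair the libraries in the main tests. An input is what remained of a homogenate used for an IP, so an IP and an input with the same number may come from the same pool, but this is not stated in the labels. Deviations of same-numbered libraries from their group means correlated at -0.18 to 0.31 between IP groups (23 of 66 pairs over 0.1). The median there was 0.077, against -0.018 for pairs with different numbers. Between IP and input the range was -0.19 to 0.51 (3 of 18), with medians of 0.030 and -0.022. Between input groups it was -0.36 to 0.42 (13 of 45), with medians of 0.0082 and 0.0069. Between Sirt1-KO and Con it was -0.01 to 0.08 (0 of 3), with medians of 0.069 and 0.0056. With the replicate number as a block, 3 members were called for Sirt1-KO (Scn9a, Scn4b and Scn8a, on the numbers both groups share) and the other counts stayed within 1.5 times, IP against input with 6 in each line and 5 for the difference. The share of all genes called was not computed for the block fits. For IP against input the block was line, stress group and number together. That fit thus paired IPs with inputs and left out IPs without a same-numbered input. Among IPs the replicate block moved Scn8a in Con to 0.043.

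Signs reversed mostly for changes near 0. Scn8a in Con, at -0.0031, became 0.0016 with RLE size factors or DESeq2 and 0.0067 without the filter, and ranged from -0.024 to 0.042 with 1 library left out. With the cortical covariate Scn9a, at -0.32 in Con and -0.42 in Sus and not called, became 0.073 and 0.048, and for Sirt1-KO Scn2b became 0.091, Scn3a 0.011 and Scn3b 0.0078. Leaving out 1 library took Scn4b from -0.135 to 0.050 in D1 Res against Con, from -0.034 to 0.053 in D2 Sus against Res, from -0.074 to 0.113 in the difference of Sus against Con, and in inputs from -0.131 to 0.023 in Res against Con, from -0.146 to 0.0011 in Sus against Con and from -0.102 to 0.040 in Sus against Res. Scn8a ranged from -0.052 to 0.040 in D2 Sus against Res.

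Per kilobase of the longest transcript instead of the union of exons, levels over all IPs were 17.0 for Scn1a, 10.9 for Scn3a, 48.3 for Scn8a, 0.921 for Scn9a and 51.7 for Scn3b, with the order of the members as before. Scn9a, at 138 to 389 counts per IP, is limited by depth more than the others.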

Other observations

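Within the 15 D2-IPs the Scn1a level fell as the cortical marker sum rose, with Pearson's r of -0.864 (permutation p = 3e-05, adjusted p = 0.00042 over 14 relations) and Spearman's rho of -0.864 (adjusted p = 0.00084). Without the 2 libraries farthest from the median of the cortical sum r was -0.691. In the 13 D1-IPs, whose cortical sums are higher, r was 0.167 (adjusted p = 0.633) and rho -0.181 (adjusted p = 0.679). The remaining 12 relations, of the other 6 members in each line, did not pass, the nearest being Scn4b in D1-IPs (r = -0.686, permutation p = 0.0111, adjusted p = 0.0775), which was -0.213 without the 2 farthest libraries.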
